A study of Mus musculus with 4 samples.

Results

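Tnf and the genes of the NF-kB feedback loop were followed across the cell types of myeloma-bearing mouse bone marrow, with and without purinostat mesylate (PM), an inhibitor of class I and IIb histone deacetylases. The 10 genes were chosen by symbol, namely Tnf, Tnfaip3, Tnfaip2, Nfkbia, Nfkbiz, Nfkb1, Nfkb2, Rel, Relb and Bcl3, out of 32285 genes in the files, and all 10 were found once. The mice carried the 5TMM model, in which 5TGM1-luc myeloma cells were injected intravenously into 6-week-old C57BL/KawRij mice, and both groups therefore bore the same tumor line. About 3 weeks later, 2 mice received vehicle and 2 mice received 10 mg/kg PM. Bone marrow was collected 24 h after treatment, and its red blood cells were removed by lysis. Each mouse gave 1 droplet-based 3' library, so n = 2 per group, and p-values measure the spread between these mice only. Values are unique molecular identifiers (UMIs) summed per mouse and cell type, given as CPM, which scales each sum to the same total. In such sums, a change within all cells and a change in a fraction of the cells of a type cannot be told apart.

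NF-kB is a family of dimeric transcription factors that sits in the cytoplasm of resting cells, bound by inhibitors. Signals from the Tnf and interleukin-1 receptors or from Toll-like receptors activate the IKK kinases, the inhibitor IkB-alpha (encoded by Nfkbia) is degraded, and the dimers enter the nucleus. Several of their targets act back on the pathway: Nfkbia itself, the ubiquitin-editing enzyme A20 (Tnfaip3), the nuclear IkB proteins IkB-zeta (Nfkbiz) and Bcl-3 (Bcl3), and the subunits encoded by Nfkb1, Nfkb2, Rel and Relb. Tnf is both a ligand that starts this signal and a target of it, and Tnfaip2 is a Tnf-inducible gene. In bone marrow the pathway is known for its part in myeloid activation, in B cell maturation and in the survival of myeloma cells.

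The promoter table of RefSeq (GRCm38.p6) held 10 windows of 300 bases for 7 of the genes, Tnf, Tnfaip3, Tnfaip2, Nfkbia, Nfkb2, Rel and Bcl3; Nfkbiz, Nfkb1 and Relb were not in it. The kappa B consensus, the DNA element bound by NF-kB, was searched on both strands, together with the 9-letter form GGGNNTTTC, which overlaps it. The consensus was found in 7 of the 10 windows, against 4.51% of all 32851 windows in the table. The 9-letter form was found in 6 of the 10, against 4.36%. Some windows of Nfkb2 overlap and share a match. By gene, the consensus was in at least 1 window of 5 of the 7 (Tnfaip3, Nfkbia, Nfkb2, Rel and Bcl3). The 9-letter form was in 4 of the 7 (Tnfaip3, Nfkbia, Nfkb2 and Rel). The 150 bases before the first listed start are shown for 4 genes that the comparisons below turn on, with the letters of either motif in capitals. Tnf lies at chr17:35199381-35202007 (minus strand), Tnfaip3 at chr10:19000910-19015657 (minus), Nfkbia at chr12:55489410-55492647 (minus) and Rel at chr11:23736847-23770970 (minus), all protein-coding genes of GENCODE on GRCm38. The Tnf and Nfkbia stretches lie directly before the annotated gene, the Rel stretch as printed ends at the first base of its gene, and the Tnfaip3 stretch lies inside the annotated gene. The stretches shown are chr17:35202008-35202157, chr10:19015411-19015560, chr12:55492648-55492797 and chr11:23770970-23771119, written on the minus strand.
Tnf: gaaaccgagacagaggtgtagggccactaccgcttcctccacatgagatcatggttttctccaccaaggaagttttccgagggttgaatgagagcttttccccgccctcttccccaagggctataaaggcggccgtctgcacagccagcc
Tnfaip3: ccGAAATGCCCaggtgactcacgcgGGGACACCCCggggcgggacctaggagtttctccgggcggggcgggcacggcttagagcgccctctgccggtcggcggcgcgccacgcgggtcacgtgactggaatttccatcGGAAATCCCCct
Nfkbia: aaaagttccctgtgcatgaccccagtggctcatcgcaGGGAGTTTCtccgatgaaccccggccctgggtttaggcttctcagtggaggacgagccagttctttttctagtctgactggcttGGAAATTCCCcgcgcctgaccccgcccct
Rel: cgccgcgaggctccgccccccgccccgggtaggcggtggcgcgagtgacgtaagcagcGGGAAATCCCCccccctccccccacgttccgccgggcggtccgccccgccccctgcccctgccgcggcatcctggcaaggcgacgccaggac
The Tnfaip3 stretch holds 3 separate runs in capitals, the Nfkbia stretch 2 and the Rel stretch 1. The Tnf stretch holds none, which says only that these letters are not in this window.

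The 4 libraries held between 69828595 and 109447030 UMIs, and the cells kept numbered 9261 and 7826 for vehicle and 13387 and 9269 for PM. Clusters were named from marker genes into 12 types, each holding 10 or more cells per mouse, and the 10 genes were left out of the clustering. Neutrophils were the most abundant type, at 48.6% to 65.8% of the cells of a mouse. In B cells, the cluster led by Vpreb1 and Igll1 held 83 and 483 of 243 and 987 vehicle cells. In the PM mice it held 195 and 128 of 1456 and 744 B cells. The part of this shift in the B cell values below was not tested. Libraries shared between 18 and 39 cell barcodes per pair, at most 0.421% of either library. PM mouse 1 had the highest share of called doublets, 5.51%, against 1.52% to 1.74% in the other 3 mice. Its automatic score threshold was also lower, 0.178 against 0.227 to 0.247, so these shares are not comparable between mice. The clusters named macrophages and CAR cells (Cxcl12-abundant reticular stromal cells) carried many neutrophil transcripts. The 8 listed neutrophil genes, all of them detected, summed to between 167369 and 235375 CPM in macrophages and between 147691 and 241761 CPM in CAR cells, against 34134 to 74054 CPM in eosinophil/basophil progenitors, 24477 to 63581 CPM in T cells and 4968 to 19494 CPM in plasma cells, and their part in the levels of these types was not tested.

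Across the named cell types, each gene had its own pattern, shown as the mean over 4 mice in the map of levels. Tnf, the ligand, was highest in neutrophils, at 23.6 ± 5.59 CPM (SD, n = 4 mice, range 16.9 to 29.1). Eosinophil/basophil progenitors, at 18.1 ± 4.46 CPM, and macrophages, at 17.2 ± 11.0 CPM, followed within the spread of neutrophils. The macrophage value rests on 22 UMIs over the 4 mice, and the part of the neutrophil transcripts of this cluster in it was not tested. Eosinophil/basophil progenitors were a single cluster of 436 cells led by Prss34, Mcpt8 and Ms4a2. The marker genes Prg2 and Epx were not among its leading genes. Values under this name are those of this cluster and not of eosinophil progenitors in general. Mono&prog (monocytes and their progenitors) had 11.3 ± 1.28 CPM, and their 4 mice lay below all 4 neutrophil sums. The lowest Tnf levels were those of erythroid&prog, at 1.76 ± 0.997 CPM, and plasma cells, at 0.914 ± 0.58 CPM. No neighboring types in the order of Tnf levels were separated by more than the spread between mice.

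**Figure D1:**
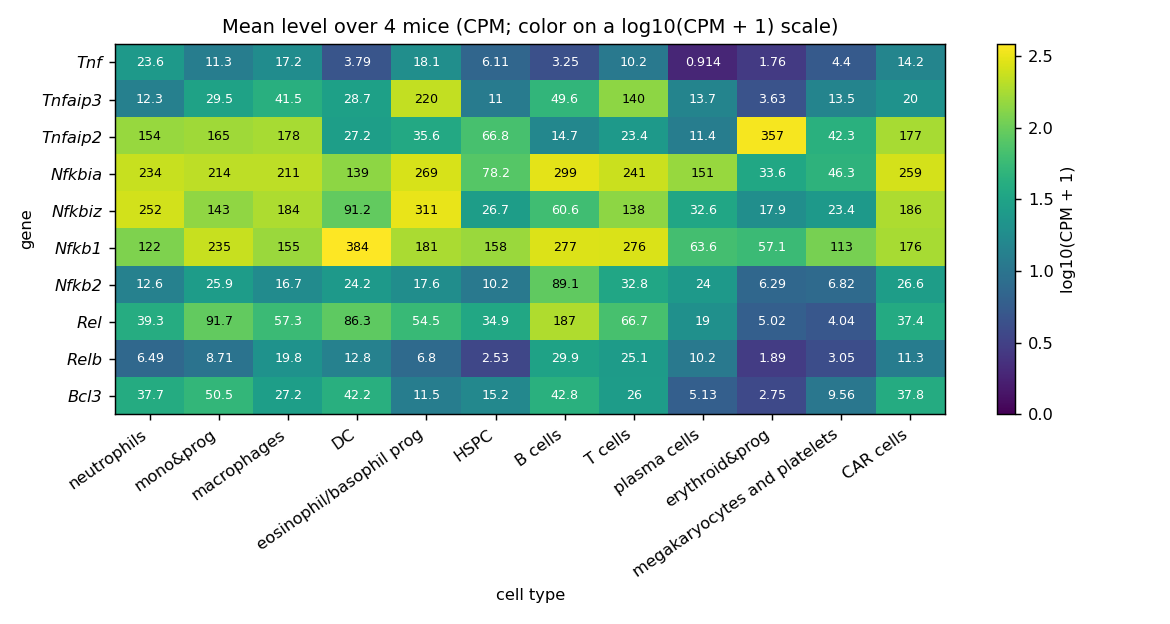
Mean level of each gene (rows) in each of 12 cell types (columns) over 4 mice, printed in CPM with the color on a log10(CPM + 1) scale. Tnf is highest in neutrophils (23.6 CPM), Tnfaip2 in erythroid&prog (357 CPM), Nfkb1 in DC (384 CPM) and Rel in B cells (187 CPM).

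Among the genes of the IkB proteins and A20, Nfkbia reached 299 ± 58.2 CPM in B cells, 234 ± 42.3 CPM in neutrophils and 214 ± 112 CPM in mono&prog. Neighboring types overlapped down to DC (dendritic cells), at 139 ± 26.3 CPM. All 4 HSPC (hematopoietic stem and progenitor cell) sums lay below those of DC, at 78.2 ± 16.2 CPM, and erythroid&prog had the lowest level, at 33.6 ± 9.36 CPM. The HSPC clusters led by Elane and Mpo and by Mpo and Ctsg held 1109 and 994 cells. The HSPC cluster led by Cd34 and Muc13 held 635. HSPC values are those of this mix and not of stem cells in general. Nfkbiz was highest in eosinophil/basophil progenitors, at 311 ± 155 CPM, and in neutrophils, at 252 ± 107 CPM, which overlapped. Tnfaip3 was also highest in eosinophil/basophil progenitors, at 220 ± 121 CPM, followed by T cells at 140 ± 60.3 CPM, and stood at only 12.3 ± 3.17 CPM in neutrophils. Bcl3 was at 50.5 ± 23.2 CPM in mono&prog, 42.8 ± 6.41 CPM in B cells and 42.2 ± 22.2 CPM in DC, with no separation between them.

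The subunits were led by lymphoid and dendritic cells. Nfkb1, which encodes p105/p50, was highest in DC, at 384 ± 46.2 CPM, with all 4 mice above every B cell sum (277 ± 22.7 CPM). DC were a single cluster of 884 cells led by Siglech and Ccr9, so DC values are those of this cluster and not of dendritic cells in general. B cells held the top place for Nfkb2, which encodes p100/p52, at 89.1 ± 24.1 CPM, and for Rel, which encodes c-Rel, at 187 ± 24.3 CPM. Both were separated from the next type, T cells for Nfkb2 (32.8 ± 8.47 CPM) and mono&prog for Rel (91.7 ± 14.3 CPM). Relb was at 29.9 ± 2.91 CPM in B cells and 25.1 ± 5.63 CPM in T cells, which overlapped, and at 6.49 ± 1.13 CPM in neutrophils. Tnfaip2 departed from the others, with its highest level in erythroid&prog, at 357 ± 54.4 CPM, apart from macrophages at 178 ± 58.0 CPM. Mono&prog (165 ± 25.2 CPM) and neutrophils (154 ± 23.8 CPM) had similar Tnfaip2 levels, and the lowest was that of plasma cells.

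The comparison of PM with vehicle asks how a 24 h exposure to a histone deacetylase inhibitor changed these genes in each cell type. A gene was called where its adjusted p was below 0.05 and its log2 fold change was beyond 0.5 in either direction. The 10 genes in 12 cell types made 120 pairs, of which 100 had enough UMIs to be tested and 0 were called with edgeR's quasi-likelihood test. At an unadjusted p under 0.05 there were 14 pairs, which lies within the 5.09% to 24.6% of all genes at that threshold in the 12 types, and DESeq2 called 1. The share of all tested genes called was 6.56% in neutrophils, 4.9% in B cells and 1.62% in mono&prog. It was 0.339% in DC, 0.297% in macrophages, 0.238% in HSPC, 0.231% in T cells and 0.16% in eosinophil/basophil progenitors. It was 0.095% in erythroid&prog, 0.0926% in CAR cells, 0.0631% in plasma cells, and 0.0532% in megakaryocytes and platelets. The fitted log2 fold change was below 0 in 75 of the 100 pairs, with a median of -0.28, and 13 of the 14 pairs at an unadjusted p under 0.05 were lower with PM. Over all genes tested, the share below 0 was between 48.5% and 50.9% in the 12 types. The pairs share 4 mice and are not independent. Where groups are said below not to overlap, both PM mice lay on the same side of both vehicle mice. Such separation was not counted over all genes, so it is not read as a PM effect.

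**Figure D2:**
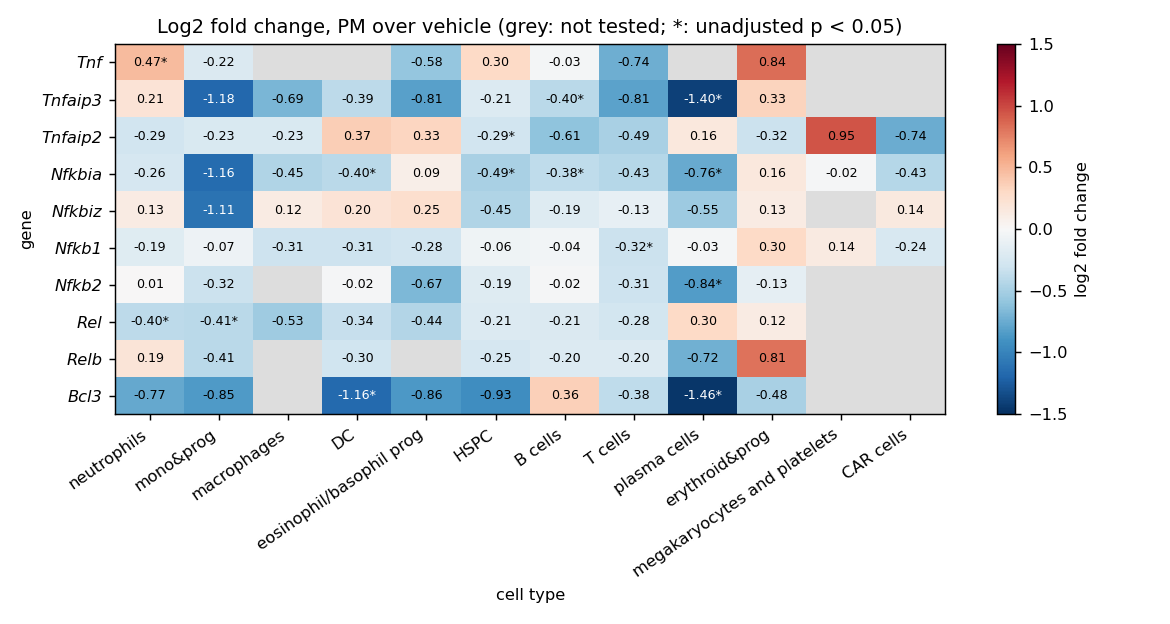
Log2 fold change of PM over vehicle for each gene (rows) in each cell type (columns), from edgeR on sums over 2 vehicle and 2 PM mice; blue is lower with PM, red is higher, grey was not tested, and an asterisk marks an unadjusted p under 0.05. The 10 values of mono&prog and of T cells are all below 0, and none of the 100 values passed the adjusted threshold.

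Tnf was the only one of the 14 pairs that was higher with PM, in neutrophils. Its level there was 16.9 and 21.1 CPM in the vehicle mice and 27.2 and 29.1 CPM in the PM mice. Vehicle and PM neutrophils lay in part in different clusters of that class. The cluster led by Asprv1 and Mpzl3 held 59 and 194 vehicle against 1663 and 1210 PM cells. The cluster led by Cstdc4 and Wfdc17 held 1127 and 628 vehicle against 189 and 292 PM cells, and the cluster led by Prok2 and Stfa2 1203 and 480 against 117 and 230. Over the whole class, both PM mice lay above both vehicle mice, with a log2 fold change of 0.47 ± 0.13 (SE) and an adjusted p = 0.0522 with edgeR, just short of both thresholds. Without vehicle mouse 2 it was called, at 0.61 on the log2 scale. Where 1 mouse is left out, here and in all such fits that follow, its group has a single mouse, which is assumed to vary like the other group, so these values show dependence on 1 mouse and are not further evidence of a difference. Mono&prog showed no such difference, with 12.8 and 11.2 CPM in vehicle and 9.69 and 11.6 CPM in PM. T cells went the other way without passing the test, from 11.8 and 14.1 CPM in vehicle to 8.77 and 6.06 CPM in PM, at 14 to 32 UMIs per mouse. This type included a cluster led by Gzma, Klra4 and Klra8, with Prf1 and Ncr1 among its leading genes. That cluster held 43 and 47 of 262 and 263 vehicle and 107 and 58 of 839 and 542 PM cells. Its part in the T cell values was not tested. Tnf could not be tested in CAR cells, DC, macrophages, megakaryocytes and platelets, or plasma cells, where a mouse had at most 15 UMIs.

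Nfkbia, the IkB-alpha gene, had its lowest fitted log2 fold change in mono&prog. The vehicle mice had 363 and 221 CPM and the PM mice 98.9 and 173 CPM. The groups did not overlap, but vehicle mouse 1 and PM mouse 1 stood at the 2 ends, and the log2 fold change of -1.16 ± 0.42 had an adjusted p = 0.4 with edgeR. HSPC had 92.1 and 88.4 CPM in vehicle and 56.1 and 76.2 CPM in PM, a log2 fold change of -0.49 ± 0.12 with an adjusted p = 0.174 with edgeR. Without PM mouse 2 it was called in HSPC, at -0.65. Neutrophils overlapped, with 282 and 210 CPM in vehicle and 189 and 255 CPM in PM.

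Tnfaip3, which encodes the deubiquitinase A20, followed the same order of mice in mono&prog. Its levels there were 51.8 and 28.6 CPM in vehicle and 13.9 and 23.9 CPM in PM. The log2 fold change was -1.18 ± 0.46 with an adjusted p = 0.416 in edgeR, and this pair was the 1 that DESeq2 called, at -1.16 with an adjusted p = 0.0089. It was also called by edgeR without vehicle mouse 2, at -1.55. In T cells, PM mouse 1 was alone at 55.6 CPM, below 198 and 157 CPM in vehicle and 149 CPM in PM mouse 2. Without PM mouse 2, Tnfaip3 was called lower in T cells, at -1.61, and in eosinophil/basophil progenitors, at -2.53, where PM mouse 1 had 46.8 CPM and the other 3 mice 232 to 319 CPM.

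Nfkbiz, the gene of IkB-zeta, depended on which PM mouse was read. In neutrophils the vehicle mice had 235 and 227 CPM, PM mouse 1 had 146 CPM and PM mouse 2 had 401 CPM. The 2 PM mice thus lay on either side of both vehicle mice, and the fitted log2 fold change of 0.13 ± 0.54 had no stable direction. Leaving out PM mouse 1 turned it into a call of 0.65, and leaving out PM mouse 2 into a call of -0.71. Eosinophil/basophil progenitors repeated this split, with 230 and 332 CPM in vehicle, 165 CPM in PM mouse 1 and 519 CPM in PM mouse 2, and calls of 0.84 and -0.74 without PM mouse 1 and without PM mouse 2, respectively. Nfkbiz was also called in HSPC without PM mouse 2, at -0.83.

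A list of 16 immediate early and handling-sensitive genes, including Fos, Jun, Egr1 and Zfp36, was read in the same sums, and all 16 were detected. In neutrophils it summed to 2959 and 2924 CPM in vehicle, 2752 CPM in PM mouse 1 and 4618 CPM in PM mouse 2, and 4 of its genes were called higher with PM. In mono&prog it summed to 6493 and 5774 CPM in vehicle, 2765 CPM in PM mouse 1 and 5629 CPM in PM mouse 2, with 0 of its genes called by edgeR and 1 at an unadjusted p under 0.05. In B cells 5 of 15 tested were called lower, and the list summed to 4184 and 3965 CPM in vehicle and 2348 and 3177 CPM in PM. Of 12 glucocorticoid response genes, Per1 was called lower in both neutrophils and mono&prog, and Zbtb16 higher in neutrophils. For the list of 16 immediate early and handling-sensitive genes, PM mouse 1 was the lowest of the 4 mice in 9 of the 12 types. It was also the lowest for Nfkbiz and Nfkbia in neutrophils and mono&prog. In HSPC the list of 16 summed to 1080 CPM in PM mouse 1 against 1965 to 2023 CPM in the other 3 mice. In T cells it summed to 2310 against 3995 to 4413 CPM, and in eosinophil/basophil progenitors to 11533 against 12843 to 18215 CPM. The calls made in these 3 types without PM mouse 2 rest on this mouse. The part of these genes in the differences between the PM mice was not tested.

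Bcl3, the gene of the nuclear co-factor Bcl-3, came closest to a call in DC. It had 73.0 and 43.2 CPM there in vehicle and 22.6 and 29.8 CPM in PM, a log2 fold change of -1.16 ± 0.26 with an adjusted p = 0.123 with edgeR. Without vehicle mouse 2 it was called in DC, at -1.504. In neutrophils vehicle mouse 1, at 63.4 CPM, stood above 28.5 CPM in vehicle mouse 2 and 19.1 and 39.8 CPM in PM, and the groups overlapped. The same vehicle mouse was the highest in HSPC, at 28.3 CPM against 10.1 to 11.2 CPM in the other 3 mice, and Bcl3 was called there, at -1.42, without vehicle mouse 2. B cells were the only type tested in which Bcl3 had a fitted value above 0, with 39.6 and 36.1 CPM in vehicle and 44.5 and 50.9 CPM in PM, and it was not called there.

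Rel, the c-Rel subunit, came close to the threshold in both myeloid types. Neutrophils had 43.7 and 42.7 CPM in vehicle and 31.0 and 39.6 CPM in PM, a log2 fold change of -0.40 ± 0.12 with an adjusted p = 0.0728 with edgeR. Mono&prog had 102 and 105 CPM in vehicle and 74.5 and 85.5 CPM in PM, at -0.41 ± 0.11 with an adjusted p = 0.091. In both types the groups did not overlap, and the size of the difference stayed under the threshold of 0.5. Without PM mouse 2, Rel was called lower in neutrophils, at -0.53. Of the 10 types tested, 8 had a fitted Rel value below 0.

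Nfkb1 had fitted log2 fold changes between -0.32 in T cells and 0.30 in erythroid&prog over 12 types. In T cells its level was 332 and 286 CPM in vehicle and 224 and 263 CPM in PM, which did not pass the test. Nfkb2 overlapped in neutrophils, at 11.9 and 12.3 CPM in vehicle and 11.1 and 14.99 CPM in PM. Relb in neutrophils was at 6.24 and 5.39 CPM in vehicle and 6.27 and 8.07 CPM in PM, and 6 of its 8 fitted values were below 0. Tnfaip2 had 164 and 163 CPM in vehicle neutrophils and 118 and 170 CPM in PM neutrophils, and it was called there, at -0.51, without PM mouse 2. Its values in erythroid&prog, where it was highest, also overlapped, at 360 and 413 CPM against 283 and 372 CPM.

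**Figure D3:**
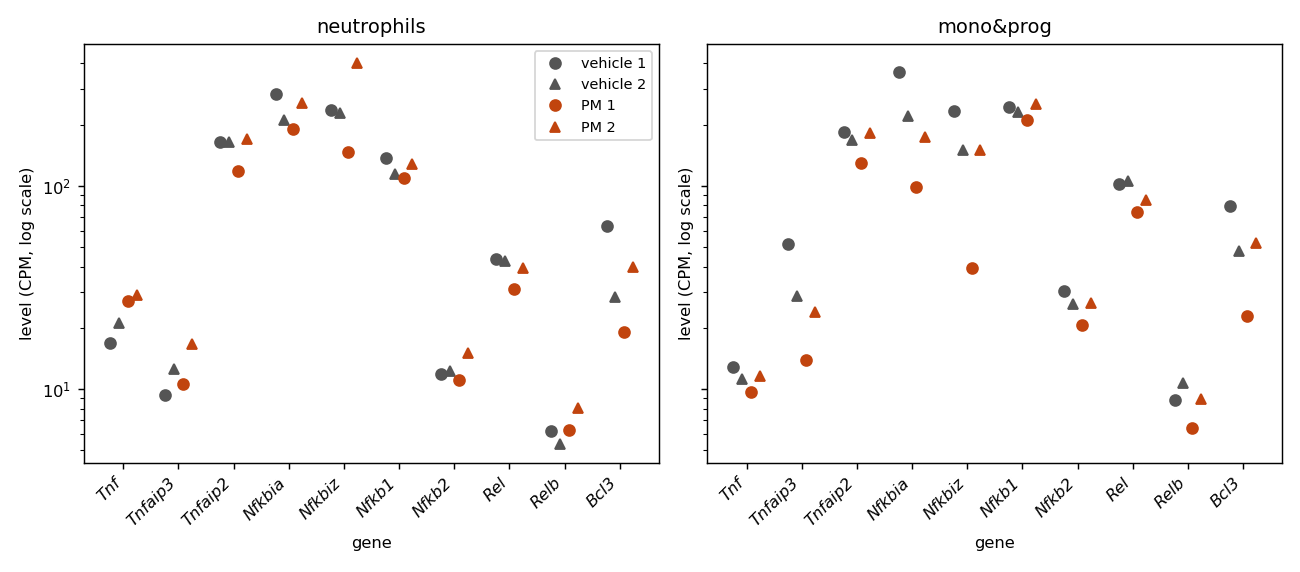
Level of each gene in neutrophils (left) and mono&prog (right), 1 point per mouse on a log scale in CPM; grey points are vehicle mice, orange points PM mice, circles replicate 1 and triangles replicate 2. Tnf in neutrophils is higher in both PM mice (27.2 and 29.1 CPM), and Nfkbiz in neutrophils places PM mouse 1 (146 CPM) and PM mouse 2 (401 CPM) on opposite sides of the vehicle mice.

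Neutrophils were divided into 3 stages by markers, after the genes called in neutrophils and the 10 genes were left out of the clustering. Cells named mature made up 53.0% to 58.3% of neutrophils in the 4 mice, but vehicle and PM cells of this stage lay largely in different clusters. The cluster led by Nt5e and Pcp4 held 72 and 101 vehicle and 1318 and 577 PM cells, and the one led by Ggt1 and Prok2 held 1255 and 499 vehicle and 80 and 307 PM cells. The Nt5e cluster was named mature on a mean marker score of -0.061, its highest among the stages. It had 4 mature markers raised and 0 among its top 10 genes, so its name is weakly based. Clusters led by Hba-a1 (188 cells) and by Ifit1 (157 cells) were also named mature. Tnf rose with PM in the immature stage with secondary granules, where 6.11% of all genes tested were called. Its level was 14.9 and 21.8 CPM in vehicle and 34.0 and 34.5 CPM in PM, a log2 fold change of 0.76 ± 0.17 with an adjusted p = 0.021 with edgeR. DESeq2 gave 0.72 with an adjusted p = 0.0533, and without vehicle mouse 1 the value was 0.50 with an adjusted p = 0.182 in edgeR, so that neither called it. In the mature stage, where 10.7% of genes were called, Tnf was at 16.1 and 21.3 CPM in vehicle and 22.2 and 27.2 CPM in PM and was not called. The proliferating early stage, with 3.27% of genes called, had 19.8 and 20.2 CPM in vehicle and 26.1 and 25.4 CPM in PM, also not called. Whether the PM effect on Tnf differed between the stages was not tested.

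Rel fell with PM in the proliferating early stage. It had 40.1 and 38.8 CPM there in vehicle and 25.7 and 32.6 CPM in PM, a log2 fold change of -0.53 ± 0.12 with an adjusted p = 0.0355 with edgeR. This call was lost with DESeq2 (adjusted p = 0.18) and when vehicle mouse 1, vehicle mouse 2 or PM mouse 1 was left out (adjusted p = 0.172, 0.145 and 0.13 with edgeR), while the fold change stayed between -0.61 and -0.43. In the mature stage Rel was at 51.6 and 52.8 CPM in vehicle and 37.9 and 45.1 CPM in PM, not called. Nfkbiz was highest in mature neutrophils, at 397 and 416 CPM in vehicle, 294 CPM in PM mouse 1 and 720 CPM in PM mouse 2, and PM mouse 2 was the highest of the 4 mice at each stage. The other 8 genes were called at no stage with edgeR. By stage, 1 of 10 genes was called in the immature, 0 of 10 in the mature and 1 of 10 in the proliferating early stage. The shares of all genes called there were 6.11%, 10.7% and 3.27%. Counts this small do not set the 10 genes apart from all genes.

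**Figure D4:**
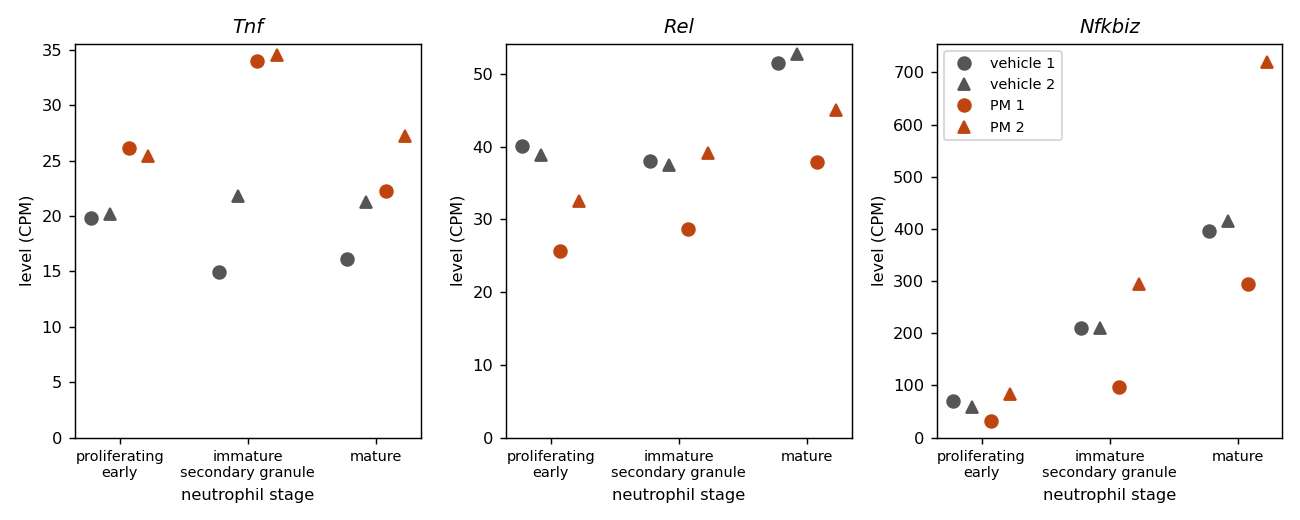
Level of Tnf, Rel and Nfkbiz (CPM, axes from 0) in 3 neutrophil stages, 1 point per mouse; grey points are vehicle mice, orange points PM mice, circles replicate 1 and triangles replicate 2. Tnf in the immature stage is at 34.0 and 34.5 CPM in PM against 14.9 and 21.8 CPM in vehicle, and Nfkbiz is higher in the mature than in the early stage in each of the 4 mice.

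The PM effect in neutrophils was set against that in mono&prog, T cells and B cells by an interaction term, blocked by mouse. Of the 10 genes, 3 differed between mono&prog and neutrophils, where 5.65% of all genes tested did. The difference (mono&prog minus neutrophils) was -0.92 ± 0.14 on the log2 scale for Nfkbia (adjusted p = 0.00127), -1.30 ± 0.24 for Nfkbiz (adjusted p = 0.0416) and -0.73 ± 0.18 for Tnf (adjusted p = 0.0242), all with edgeR. The ratio of the level in mono&prog to that in neutrophils of the same mouse shows this by mouse. For Nfkbia the ratio was 1.29 and 1.05 in vehicle and 0.523 and 0.68 in PM. The Nfkbiz ratio was 0.997 and 0.658 in vehicle and 0.27 and 0.372 in PM, although its neutrophil levels split the PM mice. For Tnf it was 0.755 and 0.53 in vehicle and 0.357 and 0.399 in PM.

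Both PM mice lay below both vehicle mice in each of these 3 ratios. The same held for Tnfaip3, Nfkb2 and Relb, which were not called in the main analysis. The ratios come from the sums that the test used, and such separation was not counted over all genes. Nfkbia was called in all 11 settings run, with differences from -1.11 to -0.72. Nfkbiz was called in 8 of 11 and missed the threshold with RLE normalization (adjusted p = 0.0934), without called doublets (0.128) and with the unnamed cluster led by Ptgs2 and Il1b counted with neutrophils (0.0786). Tnf was called in 5 of 11. It was not called with DESeq2 (adjusted p = 0.261), without vehicle mouse 1 (0.196), without PM mouse 1 (0.249) or PM mouse 2 (0.0546), with mature neutrophils in place of all neutrophils (0.0651), or with the unnamed cluster added (0.0588). The 8 neutrophil genes summed to between 15476 and 20879 CPM in mono&prog of vehicle mice and between 17137 and 30584 CPM in those of PM mice, and their part in the differences was not tested. The 4 erythroid genes summed to 40.0 and 199 CPM in vehicle and 663 and 701 CPM in PM mono&prog, and their part was not tested either. The 16 immediate early and handling-sensitive genes summed to 6493 and 5774 CPM in vehicle and 2765 and 5629 CPM in PM mono&prog. In neutrophils they summed to 2959 and 2924 CPM in vehicle and 2752 and 4618 CPM in PM. This list thus also shifted between the 2 types with PM, and its part in the differences was not tested. Within mono&prog, the cluster led by Fn1 and F13a1 held 345 and 272 of 1019 and 689 vehicle cells. In the PM mice it held 561 and 233 of 1287 and 501 cells. Its cells had a median of 20354 UMIs, against 8830 in the cluster led by Vcan and Fn1. The part of this mix in the differences was not tested. Tnfaip3 had a difference of -1.38 ± 0.53, but its adjusted p was 0.327 with edgeR. It was called without vehicle mouse 1, at -0.71, and without vehicle mouse 2, at -1.93, and Relb without vehicle mouse 1, at -0.88. Rel, Nfkb1 and Tnfaip2 had differences between -0.02 and 0.09.

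**Figure D5:**
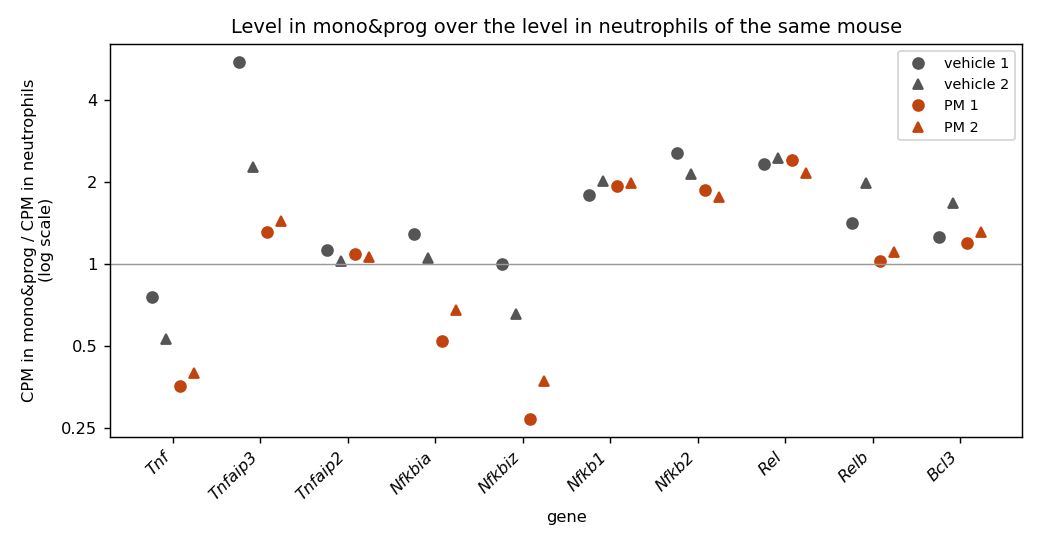
Level in mono&prog divided by the level in neutrophils of the same mouse for each gene, 1 point per mouse on a log scale, with a line at 1; grey points are vehicle mice, orange points PM mice, circles replicate 1 and triangles replicate 2. For Nfkbia the vehicle mice are above 1 (1.29 and 1.05) and the PM mice below it (0.523 and 0.68).

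Against T cells and B cells, 0 of the 10 genes differed from neutrophils with edgeR, where 2.29% and 4.73% of all genes tested did. At an unadjusted p under 0.05 there were 2 genes for T cells, Tnf and Tnfaip3, and 2 for B cells, Tnfaip3 and Bcl3, beside 12.1% of all genes for T cells and 14.6% for B cells. The largest of these differences was that of Tnf in T cells minus neutrophils, -1.23 ± 0.37 with an adjusted p = 0.0774 with edgeR. DESeq2 called 0 for either type. Tnfaip3 in T cells was called in 4 of 11 settings, among them without PM mouse 2, at -1.53. In B cells Bcl3 was called without vehicle mouse 2, at 1.62, and without PM mouse 2, at 1.32, and Nfkbiz without PM mouse 1, at -0.84.

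Plasma cells, which hold the myeloma cells, were read as a whole and in 2 parts. In the whole type, Nfkbia was at 189 and 169 CPM in vehicle and 117 and 130 CPM in PM, and Tnfaip3 at 21.5 and 16.3 CPM in vehicle and 6.96 and 10.2 CPM in PM. The groups did not overlap for either gene, a separation not counted over all genes. Neither gene was called (adjusted p = 0.348 and 0.31 with edgeR). The cluster whose main immunoglobulin genes were Ighg2b and Igkv10-96 was read as the clonal cells. Its leading genes by fold were Mt2, Rhox5 and Mt1, with 0 plasma cell markers among the top 10. It held 21 and 27 cells in vehicle and 92 and 31 cells in PM, so that its share of the type differed between mice. Within it, Nfkbia was at 90.0 and 93.9 CPM in vehicle and 93.8 and 83.4 CPM in PM, with 0 of 7 tested genes called beside 0.643% of all genes. In the other plasma-like cells, Nfkbia was at 253 and 254 CPM in vehicle and 174 and 184 CPM in PM, and Tnfaip3 at 34.6 and 31.2 CPM in vehicle and 12.6 and 19.8 CPM in PM. Of the 6 genes tested in these cells 0 were called with edgeR beside 0.0943% of all genes, 4 had an unadjusted p under 0.05 beside 6.996% of all genes, and DESeq2 called 0; in the clonal cells no gene had an unadjusted p under 0.05 and DESeq2 also called 0. Relb was called in the other cells without vehicle mouse 1, at -2.01. Whether the PM effect differed between clonal and other cells was not tested.

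A cluster of 1022 cells led by Ptgs2 and Il1b had no name under the marker rule, at a median of 1882.5 UMIs per cell. In it, 6 of the 10 genes (Nfkbia, Nfkbiz, Tnfaip2, Tnf, Bcl3 and Relb) had a higher mean level over 4 mice than in any named type. Nfkbia was at 2047 and 1293 CPM in vehicle and 529 and 1533 CPM in PM. Nfkbiz was at 1212 and 902 CPM in vehicle and 642 and 1457 CPM in PM. Tnfaip2 was at 1129 and 1233 CPM in vehicle and 841 and 967 CPM in PM. PM mouse 1 was the lowest of the 4 mice for each of these 3 genes. Tnf was at 53.2 and 62.7 CPM in vehicle and 22.5 and 7.59 CPM in PM, on 30 and 60 UMIs in vehicle and 6 and 2 UMIs in PM. A second unnamed cluster, of 217 cells led by Ace and Adgre4, also had higher means than any named type for 5 genes, Nfkbia (502 CPM), Nfkbiz (484 CPM), Nfkb1 (460 CPM), Relb (43.5 CPM) and Bcl3 (87.7 CPM). The highest levels given above for these genes therefore hold for the named types alone. The PM effect in these clusters was not tested.

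The share of cells with a UMI of a gene differed by gene and cell type. After each cell was thinned to 1000 UMIs, a Tnf UMI was found in 1.59% and 2.24% of vehicle neutrophils and 2.71% and 2.9% of PM neutrophils. In erythroid&prog, which serve as the background type, the share was at most 0.775%, on 129 to 316 cells per mouse. The order of the mice is the one seen in CPM. Without thinning, the Tnf share in neutrophils was 9.54% to 12.4%, at median depths of 4295 to 5752.5 UMIs per cell, against 6672.5 to 18500 UMIs in erythroid&prog. An Nfkbia UMI was found in 32.1% and 22.5% of vehicle and 11.1% and 19.1% of PM mono&prog cells at 1000 UMIs, above the 1.95% to 4.65% of erythroid&prog. Thinning left out 108 vehicle and 157 PM neutrophils with fewer UMIs.

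The rest of the pathway was read from lists of 102 genes, which gave 856 tested gene and cell type pairs. Of these, 13 were called higher and 5 lower. The share of all tested genes called ran from 0.0532% in megakaryocytes and platelets to 6.56% in neutrophils. The count over all types is therefore not read as a trait of the pathway. In neutrophils, 7 of 86 tested genes were called higher and 2 lower. Over all neutrophil genes 6.56% were called, 681 higher and 104 lower, a split in the same direction. The chemokine gene Ccl3 rose most, from 2.64 and 2.46 CPM in vehicle to 26.2 and 48.2 CPM in PM, a log2 fold change of 3.75 with an adjusted p = 0.00565 with edgeR. The related chemokine gene Ccl4 (1.25) and the adhesion gene Vcam1 (1.05) rose as well, and so did Il1rn, which encodes the interleukin-1 receptor antagonist, and the adhesion gene Icam1. The mitochondrial superoxide dismutase gene Sod2 was the 1 target called lower, at -0.54. Among receptors, 1 of 9 tested was called, Tnfrsf13b (TACI), higher at 1.04. Of 26 adaptors and kinases 1 was called, Traf1, higher at 1.20, and of 14 other inhibitors 1, Nfkbib (IkB-beta), lower at -0.62. Levels of Traf1 were low, at 1.10 and 1.27 CPM in vehicle and 2.78 and 3.01 CPM in PM. Icam1 was also low, at 1.33 and 1.05 CPM in vehicle and 2.28 and 3.04 CPM in PM. The median of the 30 tested targets in neutrophils was 0.02, beside -0.00062 over all genes.

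Mono&prog had 1 of 91 tested pathway genes called, beside 1.62% of all genes tested there. This gene was Il1rn, from 12.1 and 10.2 CPM in vehicle to 26.2 and 30.3 CPM in PM (log2 fold change 1.29). The median of its 32 tested targets was -0.21, beside -0.0040 over all genes. In T cells 0 of the pathway genes were called with edgeR, and 6 of 28 tested targets had an unadjusted p under 0.05, beside 10.4% of all T cell genes. In B cells, where 4.9% of all genes tested were called, Lta, the lymphotoxin alpha gene, rose (1.46). Vcam1 (1.34) and Irak3, an inhibitor of Toll-like receptor signaling (0.79), rose there as well. The kinase gene Pim1 (-0.80), the ligase gene Traf6 (-0.76) and Il1b (-1.27) fell in B cells. The clusters within B cells shifted between the groups, as given above, and the part of this in these calls was not tested. In B cells the 8 listed neutrophil genes summed to 22445 and 25091 CPM in vehicle and 41337 and 20742 CPM in PM. The unnamed cluster led by Ptgs2 and Il1b held 245 and 454 vehicle cells and 180 and 143 PM cells. Whether transcripts carried over from such cells account for the Il1b call in B cells was not tested. Rela, which encodes the p65 subunit, was called in none of the 12 types and had a fitted value below 0 in 11.

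The genes most like each member over the 48 sums of 4 mice and 12 types were found by Pearson's r of log2(CPM + 1), among 10642 genes. These correlations are across sums that share mice, libraries and cell types, and carry no p. Tnf was most like Fosl2 (r = 0.898), Ltb4r1 (0.895) and Nhsl2 (0.888). Nfkbia was most like Mcl1 (0.883), Tsc22d3 (0.876) and Birc3 (0.869). The closest genes to Nfkbiz were Nabp1 (0.901), Kdm6b (0.896) and Zfp36 (0.892). Tnfaip3 was nearest to Ddit4 (0.85), Tnfaip2 to Agap1 (0.823), Nfkb1 to Washc4 (0.904), Nfkb2 to Zup1 (0.813), Rel to 9930111J21Rik2 (0.922), Relb to Kif1c (0.803) and Bcl3 to Il4ra (0.832). None of the 30 nearest genes was itself one of the 10.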

How the data were processed

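Bone marrow of 2 vehicle and 2 PM mice was profiled by single-cell RNA-seq with a 3' kit that keeps the strand. The authors deposited filtered matrices of raw UMI counts per gene and cell, made with Cell Ranger 6.0.1 per the file headers and methods. The reference was GRCm38 by the methods, whereas the submitters' notes list GRCm39. Of the 32285 gene IDs, 99.6% are in GENCODE vM21 of GRCm38.

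Cells with fewer than 300 genes or over 20% mitochondrial UMIs were removed. They were clustered with scanpy 1.11.5 (2500 variable genes without the 10 members, 30 components, 15 neighbors, Leiden resolution 1) and named from marker genes. Doublets were scored per library and kept in the main analysis. Counts were summed per mouse and type. Groups were compared by the robust quasi-likelihood test of edgeR 4.0.16 in R 4.3.3, after TMM normalization and filterByExpr, with Benjamini-Hochberg adjustment over all genes of a type. Interactions used a mouse block and an adjusted p under 0.05. Alternatives were DESeq2 1.42.0, RLE normalization, no filter, other cell filters, another Leiden resolution, doublets left out, other cluster assignments, the replicate block and leaving out each mouse. The fits were tested on simulated data.

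The members and gene lists were chosen with earlier results of these data known. Named pathway genes were at most 3 per list with the largest change among those called, and others named were chosen after their values were seen.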

Additional observations from a re-analysis of the deposited data

Results flagged for a closer look

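The PM effect differed between mono&prog and neutrophils by a test of the difference itself (edgeR, mouse as a block) for 3 of the 10 genes. Of all genes tested, 5.65% differed by this test. The same test of T cells and of B cells against neutrophils called none of the 10 genes, beside 2.29% and 4.73% of all genes. The difference, mono&prog minus neutrophils on the log2 scale, was -0.73 for Tnf, -0.92 for Nfkbia and -1.30 for Nfkbiz. The ratio of mono&prog to neutrophils was lower in 2 of 2 PM mice than in both vehicle mice for each gene. The same held for Tnfaip3, Nfkb2 and Relb, which were not called in the main analysis. These ratios come from the sums that the test used, so they add no support to it. Such separation was not counted over all genes. The clusters within both types shifted between the groups, and the part of this in the differences was not tested. The part of the immediate early and handling-sensitive genes, whose sums are given above, was not tested either. Only the Nfkbia difference was called in all 11 settings run, while Tnf was called in 5 and Nfkbiz in 8.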

How the results depend on the processing

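Of 683 alternative values for 51 single results, 611 kept their direction and their side of the threshold, 36 passed it, 16 lost it and 20 reversed; the cause of these was not tested. The 0 pairs called became 1 with DESeq2, 3 without the filter on low counts, 4 with a crossed replicate block and 0 to 8 when 1 mouse was left out (8 without PM mouse 2, all lower, and 2 without PM mouse 1, both higher). With the replicate block as numbered it stayed at 0, and the numbers are shared names only (2 pairs, correlation of deviations as numbered from -0.149 to 0.204 over the types). Fits without 1 mouse assume that the lone mouse of its group varies like the other group. The 2 stage calls became 0 with DESeq2, 1 with the replicate block (Rel lost, adjusted p = 0.0995 with edgeR) and 0 to 6 with 1 mouse left out. The 0 calls in plasma cell clusters became 0 to 1. The 3 interaction calls became 5 without the filter, 1 with the Ptgs2 and Il1b cluster counted with neutrophils, and 3 to 5 with 1 mouse left out. The mean share of neutrophils with a Tnf UMI was 2.36% thinned and 11.5% with all UMIs. No filter moved the median of all genes by up to 0.19 (log2).

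With 1 mouse left out, log2 fold changes that reversed ranged from -0.74 to 0.84 for Nfkbiz in eosinophil/basophil progenitors, from -0.16 to 0.020 for Nfkb1 in mono&prog, from -0.090 to 0.46 for Tnfaip3, from -0.71 to 0.65 for Nfkbiz and from -0.17 to 0.17 for Nfkb2 in neutrophils. By stage they ranged from -1.21 to 0.28 (immature), from -0.50 to 0.74 (mature) and from -0.99 to 0.25 (proliferating) for Nfkbiz, and from -1.28 to 0.077 for Bcl3 (proliferating). The B cell minus neutrophil difference of Nfkbiz ranged from -0.84 to 0.51. With the Ptgs2 and Il1b cluster, Tnfaip3 in neutrophils was -0.17 and Nfkb2 -0.036. Nfkbiz in neutrophils was -0.030 with the replicate block and -0.027 with the crossed one. Nfkb2 in neutrophils, 0.0052 in the main analysis, was -0.024 with DESeq2, -0.0054 with RLE normalization, -0.0054 with the replicate block, -0.0012 with 500 genes and 10% mitochondrial UMIs as limits, and -0.0050 without called doublets. Counts limit Tnf most, which could not be tested in 5 of 12 types.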
